A study of Strongylocentrotus purpuratus with 10 samples.

Results

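When the same stretch of genome carries nascent transcription at both stages of development, the peak caller may draw it as 1 element at one stage and as several at the other. Groups of such elements were taken here from the lists of predicted transcriptional regulatory elements (TREs) of purple sea urchin (*Strongylocentrotus purpuratus*) embryos aged 20 h and 12 h. Peaks of the 20 h and 12 h lists that overlapped by at least 1 bp were linked, and a connected group entered when it held at least 1 peak of each stage and at least 3 peaks in all. Of 23383 linked groups, 6437 (27.5%) met this rule, and the other 16946 (72.5%) held 1 peak of each stage and are called one to one. A group with 1 peak at 12 h and several at 20 h is called split at 20 h, a group with 1 peak at 20 h and several at 12 h is called fused at 20 h, and a group with several peaks at each stage is called many to many. The names describe the calls and not a process, since no element was followed from one stage to the other.

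PRO-seq (precision nuclear run-on sequencing) records where engaged RNA polymerases stand, by sequencing the 3′ ends of nascent RNA from isolated nuclei. Active promoters and enhancers commonly start transcription in both directions, and dREG is a machine learning tool that recognises this shape in the nascent RNA profile and lists the stretches likely to be TREs. Neighbouring initiation sites can lie close together in a promoter or enhancer cluster, so the edges of a call and the gaps between calls are properties of the profile and of the caller.

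The labels list 6 libraries from 20 h embryos (4 biological replicates) and 4 libraries from 12 h embryos (3 biological replicates). These are more biological replicates than the methods describe. Labels name the embryos of both ages hatching blastulae grown at 15 °C, while the paper calls them early (12 h) and late (20 h) blastulae. No genotype or treatment is given for either stage, and the embryos came from wild populations. Each stage had 1 list of peaks made from pooled reads, so no value has an error across biological replicates and no test between the stages was possible. Stage, sequencing depth (higher at 20 h according to the methods) and embryo batch cannot be told apart. Intervals below are 95% intervals (Wilson for shares, order statistics for medians) that cover counting only and treat groups as independent.

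The 20 h list held 56753 peaks with a median width of 350 bp, and the 12 h list 43912 peaks with a median width of 380 bp. The split, fused and many-to-many groups took in 13059 of the 20 h peaks (23.0% of the list, 43.5% of the 20 h peaks that overlapped the other stage) and 10617 of the 12 h peaks (24.2% and 38.5%). They were spread over 1978 scaffolds.

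Splits outnumbered fusions. There were 2832 groups split at 20 h (12.1% of linked groups), 1072 fused at 20 h (4.58%) and 2533 many to many (10.8%), so that 2.64 groups were split for each fused one. The 20 h list is the longer one. Cut to as many peaks as the 12 h list, keeping those of lowest p, it gave 2007 split and 1157 fused groups, a ratio of 1.73. Most were of the smallest possible size. Among split groups 2609 (92.1%) held 2 peaks at 20 h, 215 held 3 and 8 held 4. Among fused groups 1041 (97.1%) held 2 peaks at 12 h, 30 held 3 and 1 held 4. Among many-to-many groups 1525 (60.2%) held 2 peaks at each stage and 477 held 3 at 20 h and 2 at 12 h, against 155 that held 2 at 20 h and 3 at 12 h. The largest group held 5 peaks at each stage. Even in the many-to-many class the 20 h side was more often the more divided one. It had more peaks in 608 groups (24.0%), the same number in 1733 (68.4%) and fewer in 192 (7.58%). The many-to-many class was the one most open to the overlap required, since 112 such groups were left when links had to cover at least 50% of the shorter peak.

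**Figure D1:**
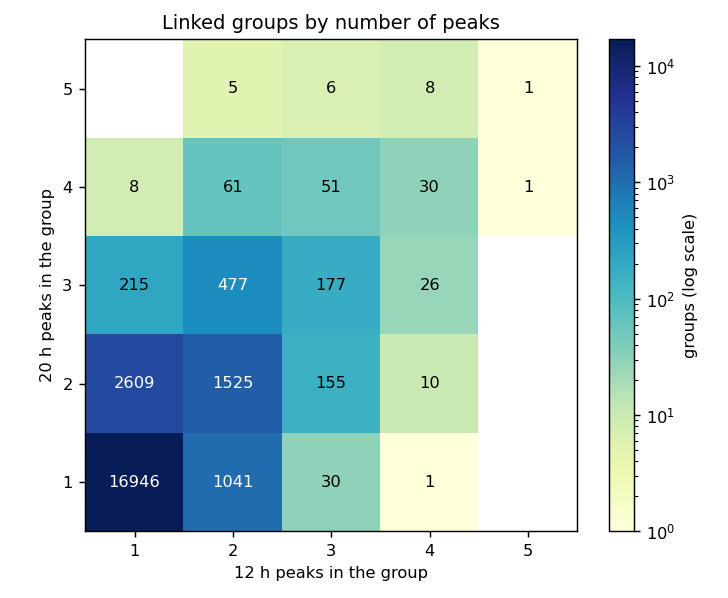
Number of linked groups by the number of 20 h peaks (vertical axis) and 12 h peaks (horizontal axis) they hold, with the count printed in each cell and the colour on a log scale. The first column above its lowest cell holds the split groups (2609, 215 and 8) and the lowest row right of its first cell the fused groups (1041, 30 and 1).

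The linking rule has no threshold on a measured value other than the overlap of 1 bp. The lists themselves held only well supported calls, with a lowest probability of 0.950028 at 20 h and 0.950016 at 12 h. A weaker piece is absent from them, so the class of a group also rests on that floor. Because all peak edges lay on a 10 bp grid, the smallest possible link was 10 bp. Of 34185 links, 775 were 10 bp and 564 were 20 bp long. With the links of 10 bp dropped, 6032 member groups were left. Just outside the rule, 1349 one-to-one groups were touched at 0 bp by a further peak of the other stage.

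The gaps inside the groups were narrow. A group of this kind has no closed loops, so each gap between neighbouring peaks of one stage was spanned whole by 1 peak of the other stage, which was so for 10802 of 10802 gaps. A 12 h peak spanned 6622 gaps of the 20 h list, and a 20 h peak spanned 4180 gaps of the 12 h list. The 20 h gaps thus made up 61.3% of the spanned gaps (interval 60.4 to 62.2%), a ratio of 1.58. Of the spanned gaps, 6254 at 20 h (94.4%) and 4086 at 12 h (97.8%) measured exactly 20 bp, the smallest distance between neighbouring peaks in either list. Only 105 gaps at 20 h and 66 at 12 h were over 100 bp wide, and the widest measured 530 bp in the 20 h list and 430 bp in the 12 h list. Among all gaps of up to 500 bp, spanned or not, 12628 at 20 h measured 20 bp, 1475 measured 21 to 100 bp and 2859 more than that. At 12 h these numbers were 9996, 420 and 1687. Gaps of 20 bp thus prevailed in both lists before linking, and a spanned gap must also fit inside 1 peak. The narrowness of the spanned gaps therefore follows in part from the lists and the rule.

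Gaps of 20 bp had a different outcome in the other list depending on the stage they were read from. Of 12628 such gaps at 20 h, 49.5% were spanned by a 12 h peak, 21.1% lay between peaks that overlapped separate 12 h peaks, 10.6% had a 12 h partner on one side and 18.8% on neither side. Of 9996 such gaps at 12 h, 40.9% were spanned by a 20 h peak, 33.0% lay between peaks with separate 20 h partners, 14.7% had a partner on one side and 11.5% on neither side. Wider gaps were spanned less often. Of gaps of 21 to 100 bp, 17.8% of 1475 at 20 h and 6.67% of 420 at 12 h were spanned, and of gaps above 100 and up to 500 bp, 3.64% of 2859 at 20 h and 3.91% of 1687 at 12 h.

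The divided stage covered more bases than the undivided one, in either direction. Split groups had a median outer span of 690 bp at 20 h and 570 bp at 12 h, and covered 1954 kb at 20 h and 1666 kb at 12 h in all, a ratio of 1.17. Fused groups had a median outer span of 500 bp at 20 h and 700 bp at 12 h, and covered 560 kb at 20 h and 748 kb at 12 h, a ratio of 0.749. Many-to-many groups spanned 870 bp at 20 h and 900 bp at 12 h, with a ratio of covered bases of 0.970. One-to-one groups spanned 380 bp at 20 h and 400 bp at 12 h, with a ratio of 0.952. Gains and losses balanced over all split, fused and many-to-many groups, which covered 4735 kb at 20 h and 4704 kb at 12 h, with 3946 kb covered at both stages.

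Per group, the median log2 ratio of covered bases, 20 h over 12 h, was 0.20 in split groups (interval 0.19 to 0.23), -0.43 in fused groups (-0.46 to -0.39), -0.04 in many-to-many groups (-0.05 to -0.03) and -0.06 in one-to-one groups (-0.07 to -0.05). Covered bases were at least 1.25 times as many at 20 h in 1133 of 2832 split groups, 4.01% of fused and 7.94% of many-to-many groups, beside 19.2% of all linked groups. They were at least 1.25 times as many at 12 h in 5.93% of split, 58.8% of fused and 13.8% of many-to-many groups, beside 25.4% of all linked groups. The class of a group was set by the same intervals, so these shares describe the groups and carry no further weight.

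**Figure D2:**
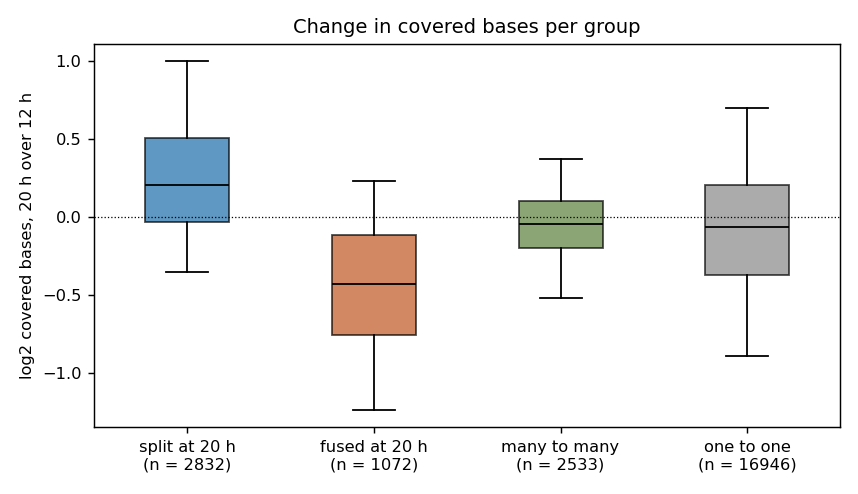
Log2 ratio of covered bases per group, 20 h over 12 h (vertical axis), for the 3 classes and for one-to-one groups. Boxes show quartiles, lines in them medians and whiskers the central 90% of groups, and the medians are 0.20, -0.43, -0.04 and -0.06 from left to right.

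The outer edges of these groups seldom coincided at both ends. Both outer edges lay within 50 bp of each other between the stages in 21.1% of the groups (18.2% of split, 12.1% of fused and 28.1% of many-to-many groups), beside 30.4% of all linked groups and 34.0% of one-to-one groups. Among many-to-many groups with 2 peaks at each stage the share was 33.0%, close to that of one-to-one groups. Exactly 1 edge lay within 50 bp in 51.7% of split, 56.4% of fused and 48.7% of many-to-many groups, and in 46.2% of one-to-one groups. The most frequent picture was thus 1 held edge and 1 displaced edge. Both edges were identical in 30 groups. Where both ends differed in the same sense, it followed the class. The 20 h peaks reached farther at both ends in 37.5% of split, 3.73% of fused and 18.8% of many-to-many groups, beside 16.9% of one-to-one groups. The 12 h peaks reached farther at both ends in 8.12% of split, 51.6% of fused and 25.2% of many-to-many groups, beside 26.5% of one-to-one groups. The class was set by the same intervals, so these shares are a description only.

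Inside the groups, the pieces were unequal. In split groups the undivided 12 h peak had a median width of 570 bp, the narrowest 20 h piece 250 bp and the widest 400 bp, with a median ratio of narrowest to widest of 0.66. In fused groups the undivided 20 h peak measured 500 bp, the narrowest 12 h piece 260 bp and the widest 410 bp, with the same median ratio of 0.66. The gap nearest to an end of the undivided peak had its centre 160 bp from that end in split groups (29.3% of the width) and 130 bp in fused groups (26.0%). It fell in the central 50% of the undivided peak in 59.7% of split and 52.3% of fused groups. The main piece, the one that overlapped the undivided peak most, covered 60.4% of it in split and 66.7% in fused groups at the median.

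Only some groups were divisions of one and the same interval. Every piece lay at least 50% inside the undivided peak in 1597 split groups (56.4%, interval 54.6 to 58.2%) and in 455 fused groups (42.4%, 39.5 to 45.4%), and at least 90% inside in 603 (21.3%) and 132 (12.3%). In these contained split groups the median outer span reached 660 bp at 20 h, against 640 bp at 12 h, and the median log2 ratio of covered bases was 0. In contained fused groups the span reached 580 bp at 20 h, against 640 bp at 12 h, with a log2 ratio of -0.08.

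In the other groups a piece lay mostly outside the undivided peak. These were 1235 split groups, with a median outer span of 740 bp at 20 h and 480 bp at 12 h and a log2 ratio of covered bases of 0.54. They were also 617 fused groups, with a median outer span of 440 bp at 20 h and 750 bp at 12 h and a log2 ratio of -0.67. The difference in covered bases between the stages thus lay in groups whose extra piece reached beyond the undivided peak, and was small in groups whose pieces stayed within it. This too follows from the same intervals.

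**Figure D3:**
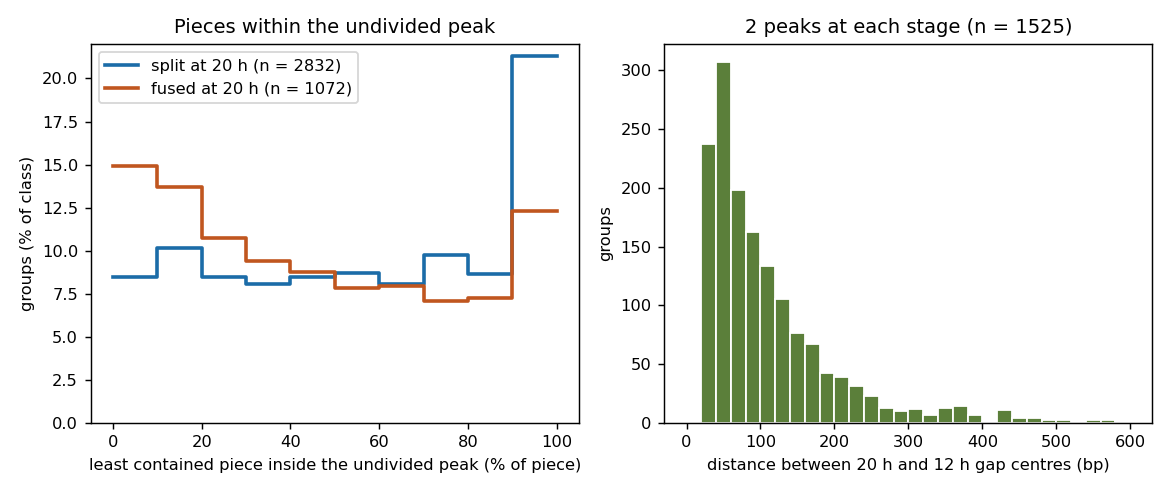
Left, distribution of the share of the least contained piece that lies inside the undivided peak (horizontal axis, percent of the piece, bins of 10) for 2832 split and 1072 fused groups (vertical axis, percent of the class), with 21.3% of split and 12.3% of fused groups in the last bin. Right, distance in bp between the centres of the 20 h and the 12 h gap in the 1525 many-to-many groups with 2 peaks at each stage, counted as groups, with a median of 80 bp.

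In many-to-many groups with 2 peaks at each stage, both lists held a gap but in different places. The centres of the 20 h and the 12 h gap lay 80 bp apart at the median, with quartiles of 40 and 140 bp and a range of 30 to 580 bp. They were within 50 bp in 35.5% of these groups, within 100 bp in 63.1% and over 200 bp apart in 11.4%. Gaps that coincided or overlapped could not enter, since the peaks on either side would then form 2 one-to-one groups, and this sets the lower end of the range. The 20 h gap lay at the lower coordinate in 54.0% of these groups (interval 51.5 to 56.5%).

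The probability that dREG gave each peak was not part of the linking rule, but no listed peak had a value below 0.95. Ranks thus compare only peaks above that floor. The probability was read as p, which is 1 minus the probability, and as a rank, the percent of peaks in the same list with a lower p. A low rank means strong support, and a probability of exactly 1 has rank 0. The best peak of a group ranked better at 20 h in 56.7% of split groups (interval 54.9 to 58.6%), 39.3% of fused groups (36.4 to 42.2%) and 46.4% of many-to-many groups (44.5 to 48.4%), beside 49.1% of all linked groups. It ranked better at 12 h in 38.0% of split, 57.2% of fused and 44.8% of many-to-many groups, beside 47.3% of all linked groups, and the remaining groups were tied. A lead of at least 10 points at 20 h occurred in 44.5% of split and 26.9% of fused groups, beside 36.7% of all linked groups, and such a lead at 12 h in 26.0% of split and 46.1% of fused groups, beside 34.8% of all linked groups. The best peak was more often on the divided side in both classes, where it was picked from more peaks, and the ranks come from lists of unequal length. For lists of equal size the 20 h list was cut to its peaks of lowest p and ranked anew, while the 12 h ranks stayed. That cut by itself moves every kept 20 h rank other than 0 to a worse value, so it cannot show what list length does. With lists of equal size made in this way, the better best rank was at 20 h in 48.9% of split and 30.9% of fused groups. With links over at least 50% of the shorter peak it was at 20 h in 47.0% of split and 47.5% of fused groups, and the difference between the classes was not seen under that setting. With the median of the pieces in place of the best, the order turned. The 20 h side then ranked better in 36.5% of split and 59.1% of fused groups, beside 47.7% of all linked groups, and the 12 h side in 62.9% of split and 40.3% of fused groups, beside 50.3%. With peaks 20 bp apart joined, the better best rank was at 20 h in 40.8% of split and 56.7% of fused groups, also in the reverse order. Most of the original split and fused groups became one to one on joining, so the joined classes are not the same groups. A joined region also took the lowest p of its peaks.

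A comparison that does not choose among pieces by their p used the main piece. In split groups the median rank was 33.4 for the main 20 h piece, 56.5 for the other 20 h pieces and 33.4 for the undivided 12 h peak. In fused groups the median rank was 40.2 for the undivided 20 h peak, 44.0 for the main 12 h piece and 59.3 for the other 12 h pieces. The main piece thus stood at about the rank of the undivided peak in split groups, and the further pieces stood well behind it in both classes. These ranks come from lists of unequal length and were not recomputed with lists of equal size. The rank of the undivided peak was better than that of every piece in 38.0% of split and 39.3% of fused groups, worse than that of every piece in 22.0 and 22.8%, and between them in the rest.

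In split groups, containment went with the order of these ranks. Fused groups are not described here in this respect. In contained split groups the main 20 h piece ranked better than the undivided 12 h peak in 39.3% and worse in 57.0% of groups. Where a piece lay mostly outside, the main 20 h piece ranked better in 57.4% and worse in 40.2%. Beside these, the 20 h peak of one-to-one groups ranked better in 48.8% and the 12 h peak in 48.6%. The undivided 12 h peak of contained groups also had a better median rank, 27.3 against 44.6 where a piece lay mostly outside, and was wider, 640 bp against 480 bp. The part of width in the ranks was not tested.

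The lowest p of a group is drawn from more peaks in some classes than in others, and so is given as a description. Its median was 7.37e-10 at 20 h and 6.90e-10 at 12 h in many-to-many groups, 5.10e-09 at 20 h and 5.33e-07 at 12 h in split groups, and 1.07e-05 at 20 h and 5.09e-07 at 12 h in fused groups. In one-to-one groups, with 1 peak to choose from, it was 4.74e-05 at 20 h and 6.00e-05 at 12 h. Taken peak by peak, the order of the classes differed. The median rank of a peak was 40.2 at 20 h and 39.0 at 12 h in many-to-many groups, 44.2 at 20 h and 33.4 at 12 h in split groups, 40.2 at 20 h and 50.4 at 12 h in fused groups, and 44.9 at 20 h and 46.0 at 12 h in one-to-one groups. Probabilities of exactly 1 were about as frequent per peak as in one-to-one groups (13.3% at 20 h and 13.1% at 12 h), with the highest share among the undivided 12 h peaks of split groups. They made up 13.4% of 20 h and 15.7% of 12 h peaks in split groups, 12.5 and 13.9% in fused groups, and 12.0 and 12.5% in many-to-many groups.

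**Figure D4:**
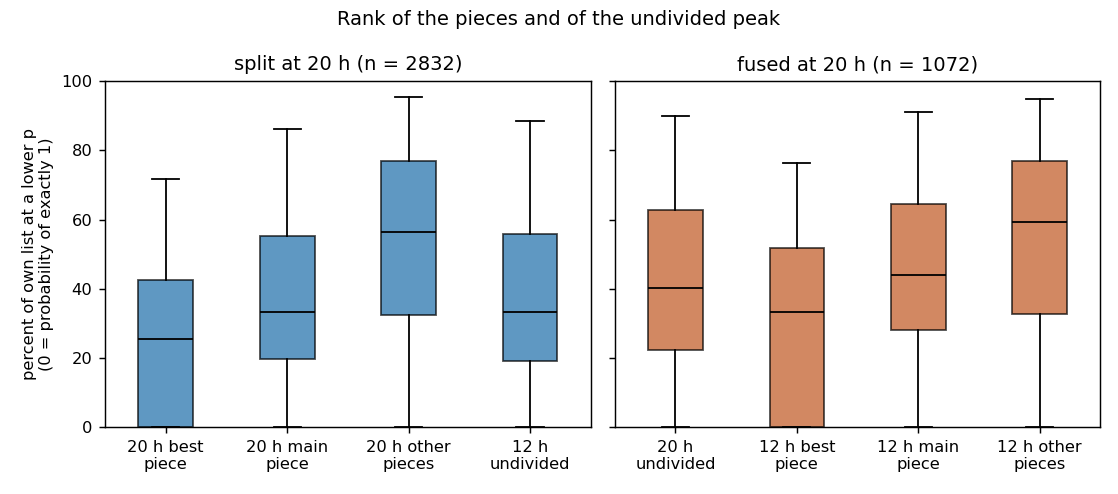
Rank within the own list (vertical axis, percent of peaks with a lower p, 0 for a probability of exactly 1) of the best, the main and the other pieces and of the undivided peak, in split groups (left panel) and fused groups (right panel). Boxes show quartiles, lines medians and whiskers the central 90% of groups, and other pieces of one group are averaged. Median ranks are 33.4 for the main 20 h piece and 33.4 for the undivided 12 h peak in split groups, and 40.2 for the undivided 20 h peak and 44.0 for the main 12 h piece in fused groups.

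The share of peaks that met several peaks of the other stage increased with width, more steeply for 12 h peaks. Of shared 20 h peaks, 13.2% overlapped at least 2 peaks at 12 h, and this share ran from 8.89% of those under 300 bp to 28.4% of the 331 peaks of 800 bp and over. Of shared 12 h peaks, 21.6% overlapped at least 2 peaks at 20 h, from 7.78% of those under 300 bp to 64.3% of the 726 peaks of 800 bp and over. Few divided peaks were of the widest class (94 of 3971 at 20 h and 467 of 5956 at 12 h), and 3417 at 20 h and 4056 at 12 h measured under 600 bp. Below 300 bp the shares of the stages were thus close, and they moved apart with width. At 400 to 490 bp they were 14.7% of 20 h and 21.5% of 12 h peaks, and at 600 to 790 bp 22.9% of 20 h and 44.9% of 12 h peaks.

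The share of divided peaks also varied with p. Among 12 h peaks it was highest, 41.3%, at a p above 0 and at most 1e-12, and it was 23.0% at a probability of exactly 1 and 12.9% at a p above 0.01. The median widths of these peaks were 580, 380 and 320 bp in that order. At widths of 400 to 490 bp alone the 3 shares were 24.6% (interval 19.7 to 30.3%), 18.4% (15.4 to 21.7%) and 19.9% (17.3 to 22.8%). Most of the spread was thus not seen among 12 h peaks of that width. Among 20 h peaks the same 3 shares were 14.6, 11.1 and 8.53%, but the highest share, 16.3%, was at a p above 1e-12 and at most 1e-06. At 400 to 490 bp these 3 shares were 11.5, 13.3 and 14.4%, with overlapping intervals. The highest there was 17.2% (interval 15.2 to 19.4%), at a p above 1e-06 and at most 0.0001, so the shares did not run in one direction with p. Other widths were not examined.

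A further peak close by was about as frequent as beside one-to-one groups within 1 kb, and differed by class at 20 bp. A further peak of either list lay within 1 kb in 57.4% of split, 56.8% of fused and 51.9% of many-to-many groups, and in 55.8% of one-to-one groups. A further 20 h peak stood exactly 20 bp beyond the outer edge in 30.8% of split, 19.1% of fused and 26.1% of many-to-many groups, and in 26.6% of one-to-one groups. For 12 h peaks the shares were 28.2, 36.9 and 30.9%, and 32.6% in one-to-one groups. On the divided stage an adjoining peak beyond the group was thus somewhat more frequent than in one-to-one groups, and on the undivided stage less frequent in fused and split groups.

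When peaks 20 bp apart were joined within each list before linking, 84.4% of the groups became one to one (86.2% of split, 84.0% of fused and 82.6% of many-to-many groups). A further 12.0% lay in joined groups split at 20 h. The joined lists held 1205 split, 284 fused, 39 many-to-many and 18267 one-to-one groups in all. The excess of splits over fusions was therefore present among joined regions as well.

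The classes were found throughout the assembly. On the 314 scaffolds with at least 20 linked groups, a median of 28.2% of the groups were split, fused or many to many, from 8.33% on Scaffold67 (3 of 36) to 54.2% on Scaffold42 (13 of 24). Split groups outnumbered fused groups on 255 of these scaffolds, were fewer on 32 and equal on 27. Scaffold34 held 13 split and 0 fused among 54 linked groups, and Scaffold25 held 13 and 1 among 67. The most fused groups, 6 of 54, were on Scaffold89, which held 9 split groups. Scaffold29 and Scaffold5 each held 11 many-to-many groups, among 56 and 58.

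The extremes of each class show what the calls looked like. Coordinates are 1-based on version 3.1 of the genome. The split group with the most peaks and the widest union lay on Scaffold153, 352411 to 354000. Its 4 peaks at 20 h measured 320, 340, 330 and 330 bp with gaps of 20, 20 and 230 bp, and its 12 h peak measured 1100 bp. The last 20 h piece and the 12 h peak both had a probability of exactly 1. On Scaffold77, 692511 to 693840, 4 peaks at 20 h (340, 160, 420 and 350 bp, all 20 bp apart) met a 12 h peak of 950 bp. There the 420 bp piece had a p of 5.59e-11 and the 160 bp piece a p of 0.0175, against 3.05e-05 for the 12 h peak.

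The widest undivided peak among split groups was the 12 h peak of 1390 bp on Scaffold315, 697201 to 698590. Its 20 h pieces of 270 and 540 bp lay at one side of it and covered 810 bp, which was also the largest loss of covered bases in the class (580 bp). The largest gain, 1050 bp, was on Scaffold21, 158231 to 159520, with 1270 bp covered at 20 h and 220 bp at 12 h. The widest spanned 20 h gap of the class, 330 bp, occurred on Scaffold1738 (14211 to 15250) and on Scaffold473 (426411 to 427620).

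Among fused groups, the one with the most peaks lay on Scaffold520, 38651 to 40270. A 20 h peak of 1350 bp there met 12 h peaks of 150, 570, 280 and 300 bp with gaps of 20, 280 and 20 bp. On Scaffold816, 236251 to 237560, a 20 h peak of 1020 bp had a p of 9.80e-12, and its 12 h pieces of 400, 460 and 410 bp had p-values of 0.0159, 0.00141 and 0.00178. The widest undivided 20 h peak, 1660 bp on Scaffold477 (439851 to 441550), was also the largest gain in the class, with 1660 bp covered at 20 h and 710 bp at 12 h. The largest loss was on Scaffold502, 114631 to 116130, with 530 bp covered at 20 h and 1480 bp at 12 h. The widest gaps spanned by a 20 h peak in the class were 430 bp on Scaffold1503 (130011 to 131490) and 380 bp on Scaffold362 (157231 to 158570).

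The largest many-to-many group, on Scaffold408 (422531 to 424660), held peaks of 310, 430, 320, 480 and 260 bp at 20 h and of 330, 350, 470, 580 and 290 bp at 12 h. Its peaks covered 1800 bp at 20 h, against 2020 bp at 12 h, and 1 gap of 210 bp at 20 h was filled by a 12 h peak. The largest gain in the class was on Scaffold72 (1046701 to 1048670), with 1910 bp covered by 4 peaks at 20 h and 1020 bp by 2 peaks at 12 h. The largest loss was on Scaffold3066 (21481 to 23270), with 1060 bp at 20 h and 1750 bp at 12 h. The widest spanned gap of all, 530 bp between 20 h peaks, lay on Scaffold1263 (189701 to 190890), where the spanning 12 h peak of 560 bp had a p of 0.00343 and overlapped each 20 h peak by no more than 20 bp.

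Genes could be named only where a group overlapped one of 389 genomic regions that earlier work had put through reporter assays for enhancer activity. These regions belong to 37 genes, mostly regulators of development, and were selected by that work and not by the calls. Their table names no genome build. Its coordinates were taken to be of version 3.1, the version of the peak lists, because the scaffold names are of the same form and the methods intersect these regions with the dREG calls, and each gene name and count below rests on this. They held 95 linked groups at 31 genes, of which 11 were split, 5 fused, 12 many to many and 67 one to one. The 28 groups of the first 3 kinds (29.5%, interval 21.2 to 39.3%) compare with 27.5% over the whole genome and lay at 18 genes.

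Signalling ligands of the TGF-beta superfamily were among them. At Bmp24, the ligand that patterns the dorsal ectoderm of the sea urchin, a many-to-many group (Scaffold344, 529311 to 530160) had peaks of 290, 200 and 320 bp at 20 h and of 450 and 160 bp at 12 h. Their p-values were 0.00289, 5.53e-07 and 5.15e-12 at 20 h and 0.0185 and 0.0107 at 12 h. Support was thus stronger at every 20 h peak than at either 12 h peak. At Univin, a Vg1-related ligand of the sea urchin embryo, a split and a many-to-many group stood 20 bp apart (Scaffold344, 488551 to 490320). In the split group the 20 h pieces of 250 and 510 bp had p-values of 0.00327 and 3.45e-12, and the 12 h peak of 610 bp a probability of exactly 1.

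Several homeobox genes had such groups, while at Dlx, Gsc, Prox and Six12 all linked groups were one to one. Lim1, a LIM homeobox gene, had 4 groups on Scaffold857 between 247631 and 256040. The first was many to many, with 20 h peaks of 280 and 310 bp separated by 460 bp. A 12 h peak of 520 bp in between had a p of 0.0225 and overlapped the 20 h peaks by 40 and 20 bp. Its second 12 h peak, of 270 bp with a p of 0.000115, ended at the same base as the second 20 h peak. The next many-to-many group began 20 bp farther on. The following split group had 20 h pieces of 160, 490 and 130 bp around a 12 h peak of 620 bp. Its middle piece had a p of 2.13e-10, against 0.000409 at 12 h, while its outer pieces had weaker p-values of 0.00454 and 0.0036. In the last split group no 20 h piece was better supported than the 12 h peak, with p-values of 0.00242 and 0.00608 for the 20 h pieces and 2.08e-05 for the 12 h peak. The best support of each group within one locus thus did not change in one direction.

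At Not, a homeobox gene, the split group (Scaffold641, 340451 to 341250) had 20 h pieces of 390 and 390 bp, with p-values of 7.36e-09 and 4.50e-06. Its 12 h peak of 410 bp had a p of 0.0157 and overlapped the first piece by 10 bp only. This group would be one to one at a stricter overlap, with a further 20 h peak beside it. A many-to-many group of the same gene held peaks of 290, 390 and 320 bp at 20 h and of 370 and 360 bp at 12 h. IrxA, of the Iroquois family, and Nk1, of the NK family, had split groups in which the 20 h pieces covered 680 and 580 bp and the 12 h peaks 610 and 530 bp. Nk22, also of the NK family, had a many-to-many group with 1170 bp covered at 20 h and 960 bp at 12 h. Sip1, a zinc finger homeobox gene, had a fused group with a 20 h peak of 670 bp over 12 h peaks of 170 and 580 bp.

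**Figure D5:**
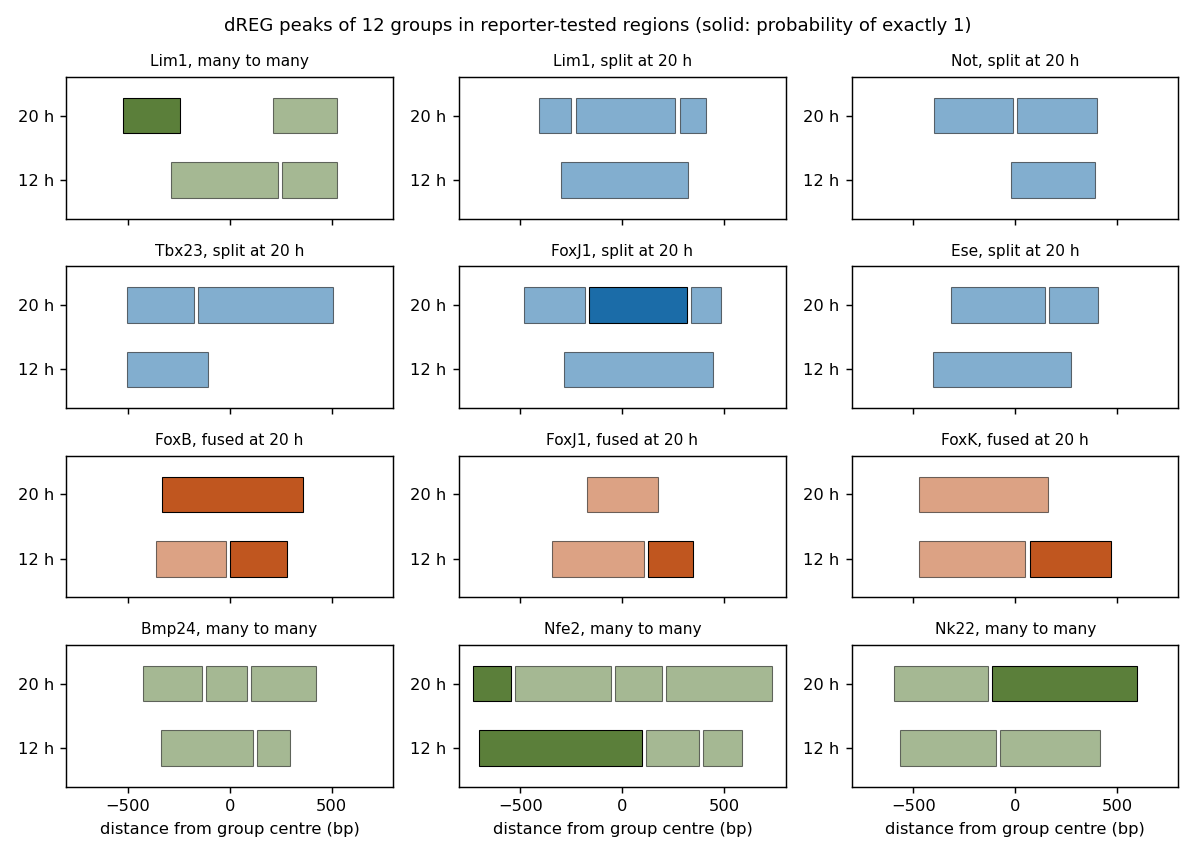
Positions of dREG peaks at 20 h (upper bars) and 12 h (lower bars) in 12 of the 28 groups in reporter-tested regions, drawn to scale as distance in bp from the centre of the group, with solid bars for a probability of exactly 1. The 20 h peaks of the first Lim1 group stand 460 bp apart over a 12 h peak, and nearly all other gaps within a stage are 20 bp.

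Among forkhead genes, FoxB, FoxJ1 and FoxK had fused groups and FoxJ1 also a split group, while the linked groups at FoxG (3) and FoxN23 (1) were all one to one. At FoxB a 20 h peak of 690 bp with a probability of exactly 1 lay over 12 h peaks of 340 bp (p 0.00428) and 280 bp (probability of exactly 1), on Scaffold912, 291841 to 292560. At FoxK a 20 h peak of 630 bp with a p of 5.40e-09 started at the same base as the first of the 12 h peaks of 520 and 400 bp, which had a p of 7.12e-13 and a probability of exactly 1. At FoxJ1, a regulator of motile cilia, a fused and a split group lay 1250 bp apart on Scaffold378. The fused group had a 20 h peak of 350 bp (p 0.00177) over 12 h peaks of 450 bp (p 1.21e-06) and 220 bp (probability of exactly 1). The split group had 20 h pieces of 300, 480 and 150 bp over a 12 h peak of 730 bp with a p of 4.66e-10. Its middle piece had a probability of exactly 1, and its outer pieces had p-values of 0.0138 and 0.0153. Neighbouring groups of 1 gene could thus be of opposite classes. The best peak was at 12 h in the fused group and at 20 h in the split group, on the divided side each time. Both 12 h peaks of the fused group had a lower p than its 20 h peak. In the split group only the middle 20 h piece had a lower p than the 12 h peak.

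The remaining groups lay at other transcription factor genes. Ese, an ETS family gene, had a split group with p-values of 2.90e-14 and 1.39e-08 at 20 h and 8.17e-13 at 12 h, so that the main piece and the undivided peak had nearly the same rank (16.2 at 20 h and 18.7 at 12 h). Elk, of the same family, had a many-to-many group of 3 peaks at each stage, with 1130 bp covered at 20 h and 1060 bp at 12 h. Tbx23, a T-box gene, had the split group with the largest gain in these regions (Scaffold364, 504871 to 505880). Its 20 h pieces measured 330 and 660 bp and its 12 h peak 400 bp, and both stages began at the same base. SoxB1, an HMG-box gene, had a many-to-many and a split group 500 bp apart, and both covered fewer bases at 20 h (800 and 640 bp) than at 12 h (1060 and 820 bp).

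Nfe2, a bZIP gene, had the group with the most peaks in these regions, many to many, with 20 h peaks of 190, 470, 230 and 520 bp and 12 h peaks of 800, 260 and 190 bp (Scaffold62, 381911 to 383380). Dach, a transcriptional cofactor gene, had many-to-many groups 47440 bp apart, with 910 and 840 bp covered at 20 h and 870 and 800 bp at 12 h. Shr2, an orphan nuclear receptor gene, had a group of each class on Scaffold2330. Its split and many-to-many groups stood 10 bp apart. The split group covered 600 bp at 20 h and 630 bp at 12 h with the same first base, and its narrow 20 h piece of 70 bp had a p of 0.00975.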

How the data were processed

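Nascent transcription was measured by PRO-seq in sea urchin embryos. Per the methods of the study, the authors mapped reads to version 3.1 of the genome with the proseq2.0 pipeline, pooled the reads of the replicates of a stage and called peaks with dREG, whose version and threshold are not given in the sources used here. Which of the labelled libraries entered each pool is uncertain. The values deposited by the authors are probabilities of a TRE, on the scale of a fraction, with 1 value for each peak and no read depth. Deeper pooled reads could alter both edges and gaps of calls.

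Peaks were linked and classed in Python 3.11.15 (numpy 2.4.6, pandas 2.3.3, scipy 1.17.1, figures with matplotlib 3.10.9) by code tested on simulated lists. No test was made, since there is 1 list per stage. Named per class were the 3 groups with most peaks, the 2 widest undivided peaks, the largest gain and loss of covered bases and the 2 widest spanned gaps, and further the 3 scaffolds with most groups per class, of which some are described, and all groups in reporter-tested regions. Of the table of these regions only names and positions were used. Members, lists and named items were chosen with earlier results of these data known. Sequences were not used here. Alternatives covered the linking overlap, a stricter p, lists of equal size, exact probabilities of 1, joining of near peaks, the edge distance and the piece that stands for a stage.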

Additional observations from a re-analysis of the deposited data

How the results depend on the processing

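No paired analysis was possible because each stage has 1 pooled list. Splits outnumbered fusions under every alternative run. The ratio of split to fused groups was lowest, 1.73, with lists of equal size and highest, 4.24, with peaks 20 bp apart joined. Linking at an overlap of at least 50 bp gave 1324 many-to-many groups, a share of 20 h gaps among spanned gaps of 65.5%, gaps of exactly 20 bp of 95.5% at 20 h and 98.3% at 12 h, both edges held in 23.5%, and better best ranks at 20 h in 53.8% of split and 43.3% of fused groups. At 50% of the shorter peak there were 644 fused and 112 many-to-many groups, and these values were 76.8, 96.4, 99.5, 28.0, 47.0 and 47.5%, so the difference in ranks between the classes was not seen. A p of at most 0.01 gave 95.4% for gaps of 20 bp at 20 h and 20.1% for edges. Lists of equal size gave 56.6% for 20 h gaps, 95.4% for gaps of 20 bp at 20 h, and ranks better at 20 h in 48.9% of split and 30.9% of fused groups. This setting cut the 20 h list by p and ranked it anew, which by itself makes its ranks worse. Without probabilities of exactly 1 there were 1640 many-to-many groups, with 93.5% for gaps of 20 bp at 20 h, 19.5% for edges and 43.7% for ranks in fused groups. Joining peaks 20 bp apart gave 1205 split, 284 fused and 39 many-to-many groups, 79.4% for 20 h gaps, 17.6% for edges, and ranks of 40.8% (split) and 56.7% (fused). The order of the ranks is then reversed, but the joined classes are not the same groups as the original ones. Joining peaks under 100 bp apart gave 530, 244 and 20 groups, 67.5% for 20 h gaps, 18.5% for edges, and ranks of 40.8 and 54.9%. Edges within 20 bp were held in 8.14% and within 100 bp in 41.6%. With the median of the pieces, ranks were better at 20 h in 36.5% of split and 59.1% of fused groups. The causes of these shifts were not tested. Among the other values of these alternatives, 20 moved by less than their counting interval or by less than 1.5 times for a count.

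The number of groups, above all of many-to-many ones, rests on gaps of 20 bp and short overlaps. With no list per library, the spread between embryos is unknown for every value.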
